A study of Homo sapiens with 24 samples.

Results

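Transcripts of 9 genes that make, recycle, use or break down glutathione were followed in HepG2 cells that carried a guide RNA against KEAP1 and were depleted of the transcription factors TFEB and TFE3. The genes are SLC7A11, GCLC, GCLM, GSS, GSR, GPX1, GPX2, GPX4 and GGT1, chosen for what their products do, with earlier results of these data known. They were matched to the count table by the NCBI gene ID of each symbol. All 9 of 9 were present among 11927 named genes, and all 9 passed the filter on low counts that left 11152 genes tested. HepG2 is an established human liver cancer line. The cells had been transduced with a LentiCRISPRv2 vector that carried Cas9 and 1 of 3 guides, and were selected as pools with puromycin, with no picking of clones stated. The guide called sgCtrl targets AAVS1, a site used as a neutral control, and sgKeap1-1 and sgKeap1-2 target KEAP1. Each pool received non-targeting siRNAs (siNC) or pooled siRNAs against TFEB and TFE3 (sitfeb/sitfe3), and RNA was taken 72 h after transfection. These make 6 groups of 4 libraries, 24 in all, so every mean below has n = 4. Nothing in the sources states that the 4 libraries of a group came from separate cultures, so p-values measure the spread between these libraries, which may be technical.

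Glutathione is the main soluble thiol of the cell, built from glutamate, cysteine and glycine. Its synthesis is limited by the supply of cysteine and by glutamate-cysteine ligase, glutathione peroxidases spend it on peroxides, and glutathione reductase returns the oxidized form to use. Many of these genes carry antioxidant response elements, DNA sites bound by NRF2 (gene NFE2L2) with a small MAF partner, and KEAP1 is the adaptor that sends NRF2 for degradation. The liver is the main producer of the glutathione in the circulation. TFEB and TFE3 bind E-box sites in genes of the lysosome, which releases cystine among its products.

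The perturbed genes were read first, as CPM, the reads of a gene per 1e6 reads of its library, on TMM-scaled library sizes. KEAP1 transcript fell with sgKeap1-1, by 0.66 on the log2 scale under siNC (adjusted p = 1.02e-04), and stood at -0.14 with sgKeap1-2 (adjusted p = 0.448). The reads of this assay lie at the 3′ end of a transcript and the position of the cuts was not analysed here, so the KEAP1 level does not check the edit itself. TFE3 fell with sitfeb/sitfe3 by 1.57 in sgCtrl, 1.74 in sgKeap1-1 and 1.69 in sgKeap1-2 on the log2 scale. Its group means were 33.3 to 54.9 CPM under siNC and 11.9 to 16.5 CPM under sitfeb/sitfe3. Against sgCtrl under siNC, TFE3 was higher with sgKeap1-2 by 0.67 (adjusted p = 0.0254) and stood at 0.52 with sgKeap1-1 (adjusted p = 0.113). TFEB fell by 2.15 in sgKeap1-1 and by 1.67 in sgKeap1-2, and its difference of -1.96 in sgCtrl did not pass (adjusted p = 0.0858). NFE2L2 transcript did not pass with either guide under siNC, at -0.33 and -0.25. Total reads ran from 3527000 to 4600951 per library. In sitfeb/sitfe3; sgKeap1-2 replicate 1, the transcript MTRNR2L8 held 4.56% of the reads in named genes, while in the other libraries no gene held more than 1.26%. All 8 hepatocyte markers listed (ALB, APOA1, APOB, TTR, SERPINA1, FGB, AFP and HNF4A) were above 0 in every library. Of these 8, 5 were lower with sgKeap1-1 and 4 with sgKeap1-2 under siNC, beside 4.91% and 7.14% of all tested genes. Under sitfeb/sitfe3, 5 were lower with each guide, beside 4.81% of all genes with sgKeap1-1 and 9.59% with sgKeap1-2. Their summed level lay between 21400 and 31800 CPM in the sgCtrl libraries and between 11600 and 18100 CPM in the libraries with a Keap1 guide. Of 9 markers of fibroblasts, endothelium and blood, PDGFRB reached at most 11.6 CPM and CD68 at most 4.78 CPM, and the other 7, looked up by symbol, gave no value among the named genes used here. The part of any of these shifts in the results below was not tested. In bulk RNA, fewer cells of a kind and less RNA per cell cannot be told apart.

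The region around the transcription start was taken from a table of RefSeq promoters for 6 members. There was 1 start each for GCLC, GCLM, GPX1 and GPX2, 2 for GGT1 and 3 for GPX4. No promoter was read for GSS, GSR and SLC7A11, so theirs were not searched. Each window runs from 250 bases before to 50 bases after the start, and 5 windows are printed because they set genes that rose with the Keap1 guides beside genes that did not pass. Capitals mark a match, on either strand, to the core of the antioxidant response element (TGACNNNGC) or to the E-box CACGTG. The strand printed is that of the gene, 5′ to 3′, on build GRCh38.p14. The windows are GCLC chr6:53545052-53545351 on the minus strand, GCLM chr1:93909381-93909680 on the minus strand, GPX2 chr14:64942696-64942995 on the minus strand, GPX1 chr3:49358304-49358603 on the minus strand and the second start of GGT1, chr22:24602943-24603242, on the plus strand.
GCLC: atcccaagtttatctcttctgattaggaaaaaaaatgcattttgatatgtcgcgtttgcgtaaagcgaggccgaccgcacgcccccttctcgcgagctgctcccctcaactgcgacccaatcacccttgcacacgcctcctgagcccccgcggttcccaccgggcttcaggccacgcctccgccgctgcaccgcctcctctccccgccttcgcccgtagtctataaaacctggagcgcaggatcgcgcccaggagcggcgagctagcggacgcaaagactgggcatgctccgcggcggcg
GCLM: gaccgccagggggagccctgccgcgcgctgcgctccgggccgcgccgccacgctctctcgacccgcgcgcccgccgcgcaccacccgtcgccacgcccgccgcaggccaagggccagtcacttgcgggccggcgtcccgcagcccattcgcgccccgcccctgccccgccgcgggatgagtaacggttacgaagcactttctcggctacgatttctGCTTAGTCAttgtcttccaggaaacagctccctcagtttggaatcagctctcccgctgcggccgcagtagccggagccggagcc
GPX2: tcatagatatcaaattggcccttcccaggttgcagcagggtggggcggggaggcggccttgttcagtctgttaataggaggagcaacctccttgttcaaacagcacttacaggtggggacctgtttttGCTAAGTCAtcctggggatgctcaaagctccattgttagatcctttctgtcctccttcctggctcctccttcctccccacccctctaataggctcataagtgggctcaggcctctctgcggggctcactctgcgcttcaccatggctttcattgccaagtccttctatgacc
GPX1: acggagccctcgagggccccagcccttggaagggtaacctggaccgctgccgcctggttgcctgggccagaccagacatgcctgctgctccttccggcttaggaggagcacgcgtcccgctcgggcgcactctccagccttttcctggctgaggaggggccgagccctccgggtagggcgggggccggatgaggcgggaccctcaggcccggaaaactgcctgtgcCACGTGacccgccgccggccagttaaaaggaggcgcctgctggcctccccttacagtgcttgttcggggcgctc
GGT1: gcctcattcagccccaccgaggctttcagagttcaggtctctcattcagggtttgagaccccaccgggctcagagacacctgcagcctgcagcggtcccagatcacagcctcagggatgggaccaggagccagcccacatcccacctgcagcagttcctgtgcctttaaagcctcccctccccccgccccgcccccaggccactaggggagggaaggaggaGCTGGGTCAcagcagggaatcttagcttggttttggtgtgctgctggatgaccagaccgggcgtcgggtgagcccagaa

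GCLM held 1 antioxidant response element core in this window, at -34 to -26 from the start, read as GCTTAGTCA on the printed strand. GPX2 held 1 at -122 to -114, read as GCTAAGTCA. The second start of GGT1 held 1 as well, at -29 to -21, read as GCTGGGTCA, although GGT1 passed the test with neither guide. GCLC, whose transcript rose, held none in these 300 bases, and neither did GPX1, the 3 windows of GPX4 or the first start of GGT1. The E-box was found in the GPX1 window alone, beginning at -24. No window held the AP-1 site TGANTCA, so no element overlapped one. Among 35116 RefSeq windows of this length outside chromosome 8, 13.3% hold the antioxidant response element core, 7.26% the E-box and 7.71% the AP-1 site. A match of letters is a description of the window and not a bound site.

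Comparing each Keap1 guide with sgCtrl asked how the loss of KEAP1 moves these genes. GCLC, GCLM, GSR and GPX2 rose with both guides under both siRNAs, between 2.00-fold and 4.49-fold, and SLC7A11 passed in 3 of the 4 comparisons, or in all 4 with the replicate number as a block in the fit. GSS, GPX1, GPX4 and GGT1 passed in none. With sgKeap1-1 under siNC, 4 of 9 members were higher and 0 lower, beside 6.01% of all tested genes called higher and 4.91% called lower. With sgKeap1-2 under siNC, 5 of 9 were higher and 0 lower, beside 7.58% and 7.14% of all genes. Under sitfeb/sitfe3, 5 of 9 were higher and 0 lower with sgKeap1-1, beside 5.69% and 4.81%, and 5 of 9 were higher and 0 lower with sgKeap1-2, beside 10.6% and 9.59%. The tests were limma-voom on 11152 genes with Benjamini-Hochberg adjustment and a threshold of 0.05. Members and tests were chosen with earlier results of these data known, so the shares of members describe these genes. Where the libraries of groups are said below not to overlap, the share of all genes with that pattern was not counted. The median log2 fold change of the 9 members was 0.87, 1.19, 1.00 and 1.05 in these comparisons, in the order given, and that of all genes lay between -0.02 and 0.01. Both guides under one siRNA were set against the same sgCtrl libraries, so the comparisons of the 2 guides are not independent of each other.

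**Figure D1:**
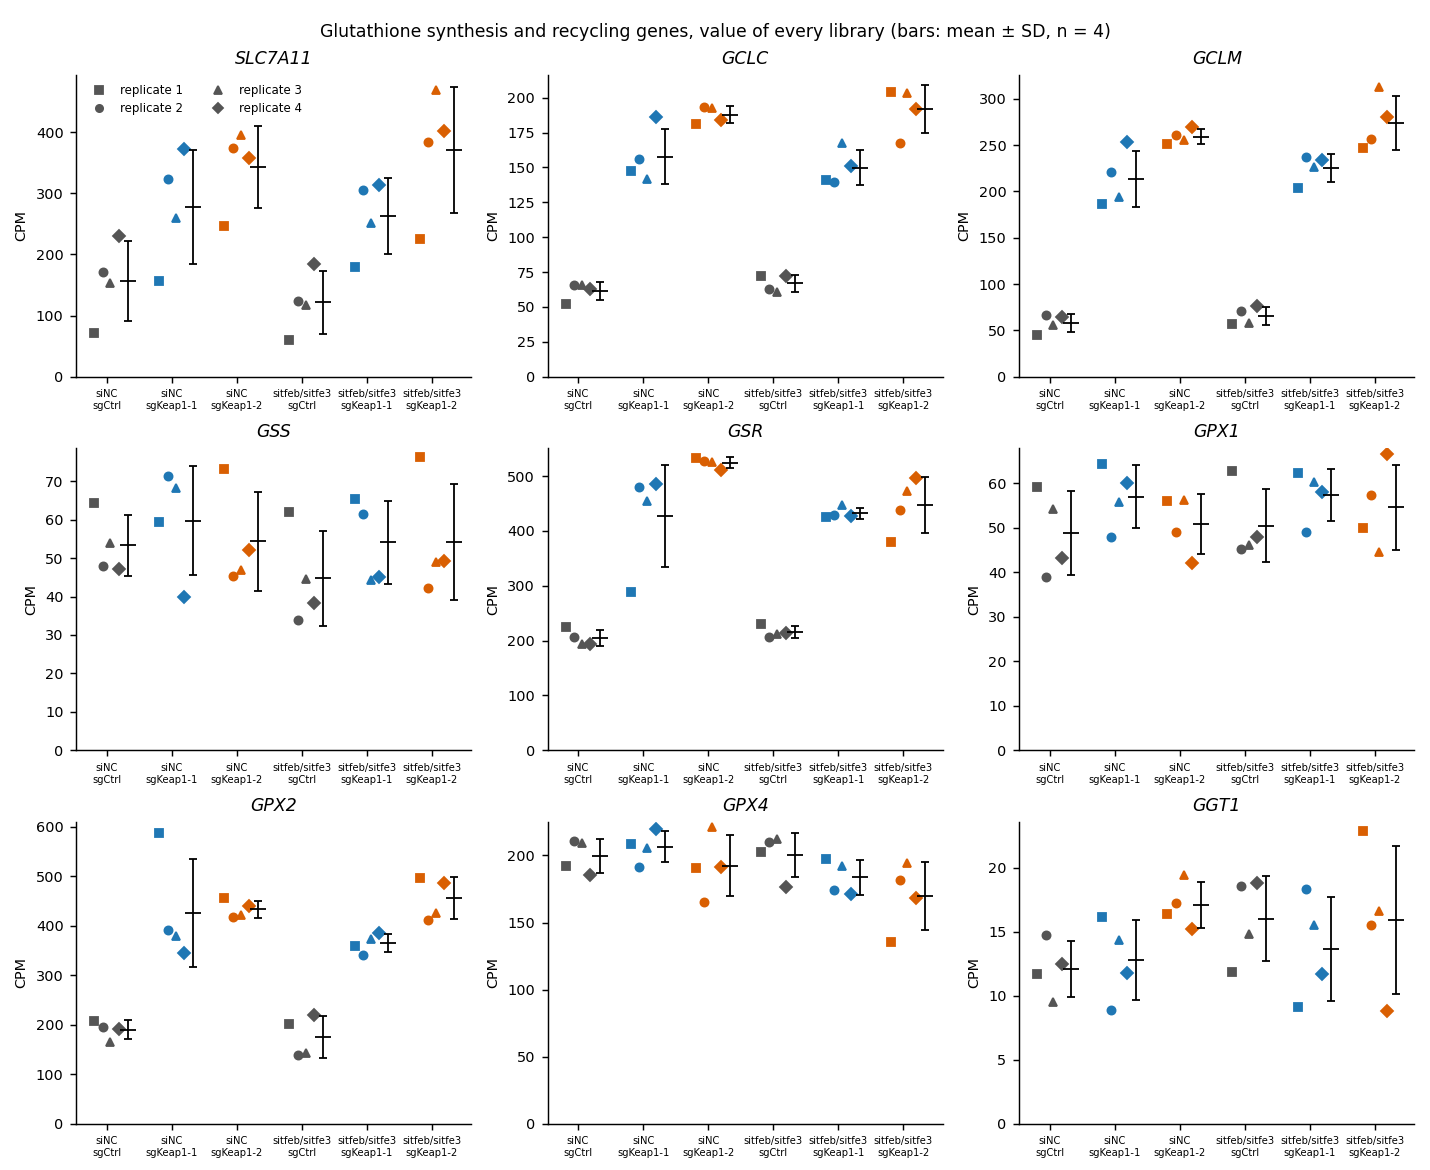
Value of each of the 9 genes in every library, in CPM, by siRNA and guide. Marker shapes give the replicate number, grey is sgCtrl, blue sgKeap1-1 and orange sgKeap1-2, and bars are the mean ± SD (n = 4). GCLC, GCLM, GSR and GPX2 are higher in every library with a Keap1 guide than in every sgCtrl library of the same siRNA, while the groups of GSS, GPX1 and GPX4 overlap.

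SLC7A11 is the cystine carrier of system xc-, which exchanges intracellular glutamate for cystine outside the cell (chr4:139085251-139163503, minus strand, GRCh37). Under siNC it measured 70.9, 172, 153 and 230.4 CPM in the sgCtrl libraries. With sgKeap1-1 it measured 156, 323, 259.9 and 372 CPM, and with sgKeap1-2 it measured 246, 375, 396 and 358 CPM. The sgKeap1-1 libraries overlapped sgCtrl, through replicate 1, and those with sgKeap1-2 all lay above it. Under sitfeb/sitfe3 the values were 60.3, 124, 117 and 185 CPM with sgCtrl. They were 179, 305, 251 and 314 CPM with sgKeap1-1, and 226, 384, 469.6 and 402 CPM with sgKeap1-2. Again sgKeap1-1 overlapped sgCtrl and sgKeap1-2 did not. The log2 fold change was 1.23 ± 0.32 (SE) with sgKeap1-2 under siNC (adjusted p = 0.00854), 1.18 ± 0.32 with sgKeap1-1 under sitfeb/sitfe3 (adjusted p = 0.0168) and 1.67 ± 0.32 with sgKeap1-2 under sitfeb/sitfe3 (adjusted p = 4.16e-04). With sgKeap1-1 under siNC it was 0.87 ± 0.32, with a 95% interval of 0.22 to 1.53, and did not pass (adjusted p = 0.0842). With the replicate number as a block in the fit that value was 0.86 ± 0.15 and passed (adjusted p = 1.73e-04), as it did without the libraries numbered 1 (0.78, adjusted p = 6.22e-04).

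The spread of SLC7A11 within a group was the widest of the members in the sgCtrl libraries. The highest sgCtrl library exceeded the lowest 3.25-fold under siNC and 3.07-fold under sitfeb/sitfe3, against 1.27-fold and 1.20-fold for GCLC. The library numbered 1 was the lowest for SLC7A11 in 6 of 6 groups, at -1.02 to -0.46 from the group mean on the log2 scale. Across all genes tested, 131 of 11152 (1.17%) were lowest in the library numbered 1 in every group. GCLM shared this pattern in 6 of 6 groups, with deviations of -0.34 to -0.05. GSS went the other way, above its group mean in the library numbered 1 in 6 of 6 groups, by 0.03 to 0.53. That library was not the highest for GSS in every group. The share of all genes above the mean in this way was not counted. The sample descriptions give the libraries of one number a common prefix, and what it stands for was not stated. Taken within a replicate number, SLC7A11 was higher with sgKeap1-1 under siNC in 4 of 4 numbers, by 0.69 to 1.13, and with sgKeap1-2 in 4 of 4, by 0.63 to 1.79. Under sitfeb/sitfe3 it was higher in 4 of 4 with each guide, by 0.76 to 1.56 and by 1.12 to 2.00. The call with sgKeap1-2 under siNC was lost without siNC; sgCtrl replicate 1 (0.89, adjusted p = 0.0549). That with sgKeap1-1 under sitfeb/sitfe3 was lost without sitfeb/sitfe3; sgCtrl replicate 1 (0.89, adjusted p = 0.0889), without sitfeb/sitfe3; sgKeap1-1 replicate 2 (1.10, adjusted p = 0.0626) and without its replicate 4 (1.09, adjusted p = 0.0629). With sgKeap1-1 under siNC the value ran from 0.53 without siNC; sgCtrl replicate 1 (adjusted p = 0.326) to 1.13 without siNC; sgKeap1-1 replicate 1 (adjusted p = 0.0171), and it passed also without siNC; sgCtrl replicate 4 (1.11, adjusted p = 0.042).

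**Figure D2:**
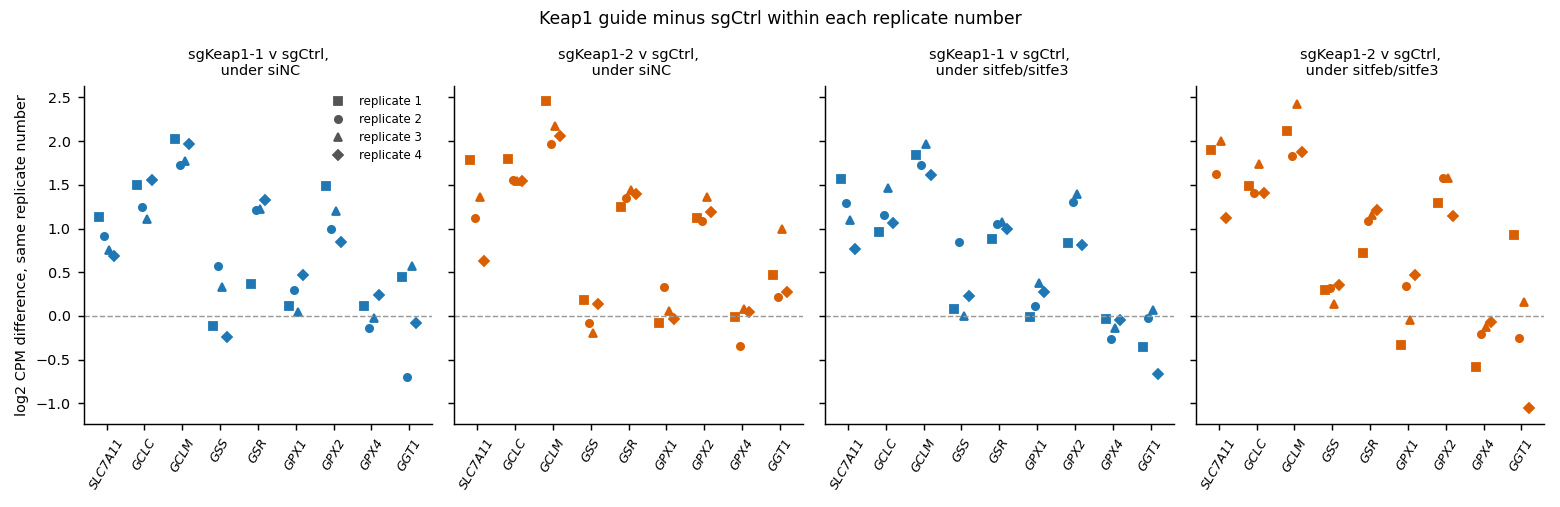
Difference in log2 CPM between the library with a Keap1 guide and the sgCtrl library of the same replicate number, for each gene and comparison. Each point is 1 pair of libraries and marker shapes give the number. SLC7A11, GCLC, GCLM, GSR and GPX2 lie above 0 at all 4 numbers in all 4 comparisons, with SLC7A11 running from 0.63 to 2.00.

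GCLC encodes the catalytic subunit of glutamate-cysteine ligase, the rate-limiting enzyme of glutathione synthesis (chr6:53362139-53481768, minus strand, GRCh37). Under siNC the sgCtrl libraries read 51.8, 65.6, 65.7 and 62.7 CPM. With sgKeap1-1 GCLC measured 147, 156, 142 and 186 CPM, and with sgKeap1-2 it measured 181, 194, 192 and 184 CPM. No library with a Keap1 guide overlapped sgCtrl. Under sitfeb/sitfe3 GCLC measured 72.4, 62.8, 60.5 and 72.3 CPM with sgCtrl. The values were 141, 139.9, 167 and 151 CPM with sgKeap1-1 and 204, 167, 203 and 192 CPM with sgKeap1-2, again with no overlap. The increase under siNC was 2.56-fold with sgKeap1-1 (log2 1.36 ± 0.11 SE, adjusted p = 2.04e-09) and 3.07-fold with sgKeap1-2 (1.62 ± 0.11, adjusted p = 4.43e-11). Under sitfeb/sitfe3 it was 2.24-fold (1.16 ± 0.11, adjusted p = 2.84e-08) and 2.86-fold (1.52 ± 0.11, adjusted p = 1.37e-10).

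GCLM encodes the modifier subunit of the same ligase, which raises the efficiency of the catalytic one (chr1:94350755-94375012, minus strand, GRCh37). It measured 45.2, 66.6, 56.3 and 64.4 CPM in sgCtrl under siNC. With sgKeap1-1 it reached 186, 221, 194 and 253 CPM, and with sgKeap1-2 it reached 251, 261, 255 and 269 CPM. The lowest library with a Keap1 guide thus stood well above the highest sgCtrl library. Under sitfeb/sitfe3 the values were 56.6, 71.5, 57.7 and 76.1 CPM with sgCtrl. They were 204, 238, 227 and 234 CPM with sgKeap1-1, and 247, 256, 313 and 280.0 CPM with sgKeap1-2. GCLM had the highest fold change of the 9 members in each of the 4 comparisons. It rose 3.68-fold with sgKeap1-1 (log2 1.88 ± 0.13 SE, adjusted p = 1.47e-10) and 4.49-fold with sgKeap1-2 (2.17 ± 0.13, adjusted p = 4.35e-12) under siNC. Under sitfeb/sitfe3 the increase was 3.47-fold (1.79 ± 0.12, adjusted p = 1.83e-10) and 4.20-fold (2.07 ± 0.12, adjusted p = 5.12e-12).

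GSS encodes glutathione synthetase, which adds glycine to gamma-glutamylcysteine and completes the molecule (chr20:33516235-33543830, minus strand, GRCh37). Its 24 values ran from 33.8 to 76.4 CPM, on 140 to 271 reads per library. The groups overlapped in all 4 comparisons. The mean under siNC was 53.3 ± 7.91 CPM (SD, n = 4) with sgCtrl, 59.7 ± 14.2 with sgKeap1-1 and 54.3 ± 12.9 with sgKeap1-2. Log2 fold changes were 0.13 (95% interval -0.29 to 0.56, adjusted p = 0.751) and 0.01 (-0.42 to 0.43, adjusted p = 0.992) under siNC. Under sitfeb/sitfe3 they were 0.29 (-0.14 to 0.73, adjusted p = 0.463) and 0.27 (-0.17 to 0.70, adjusted p = 0.414). These intervals lie below the fold changes measured for GCLC and GCLM.

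Within a library, the ratio of 2 members does not depend on its depth, and its change between groups was tested for 3 pairs in 4 comparisons with a two-sided exact permutation test of 4 libraries against 4. The smallest p that 70 arrangements allow is 0.0286, and all 12 tests gave it (0.0286 after Benjamini-Hochberg adjustment over the 12), since the groups did not overlap in any. Reads at the 3′ end of different genes are not on one scale, so only the change of a ratio is given. The log2 ratio of GCLM to GCLC was -0.09 ± 0.14 (SD, n = 4) in sgCtrl under siNC, 0.43 ± 0.07 with sgKeap1-1 and 0.46 ± 0.06 with sgKeap1-2. It thus differed by 0.52 and 0.55, which means that the modifier subunit rose more than the catalytic one. Under sitfeb/sitfe3 the difference was 0.63 with sgKeap1-1 and 0.55 with sgKeap1-2. The ratio of GSS to GCLC was lower with the Keap1 guides, by -1.21 and -1.60 under siNC and by -0.87 and -1.23 under sitfeb/sitfe3. The ratio of GPX2 to GPX1, paralogs of the peroxidase family, was higher by 0.90 and 1.12 under siNC and by 0.89 and 1.29 under sitfeb/sitfe3. These last ratios hold a member that passed and one that did not, and are not independent of the tests of the single genes.

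**Figure D3:**
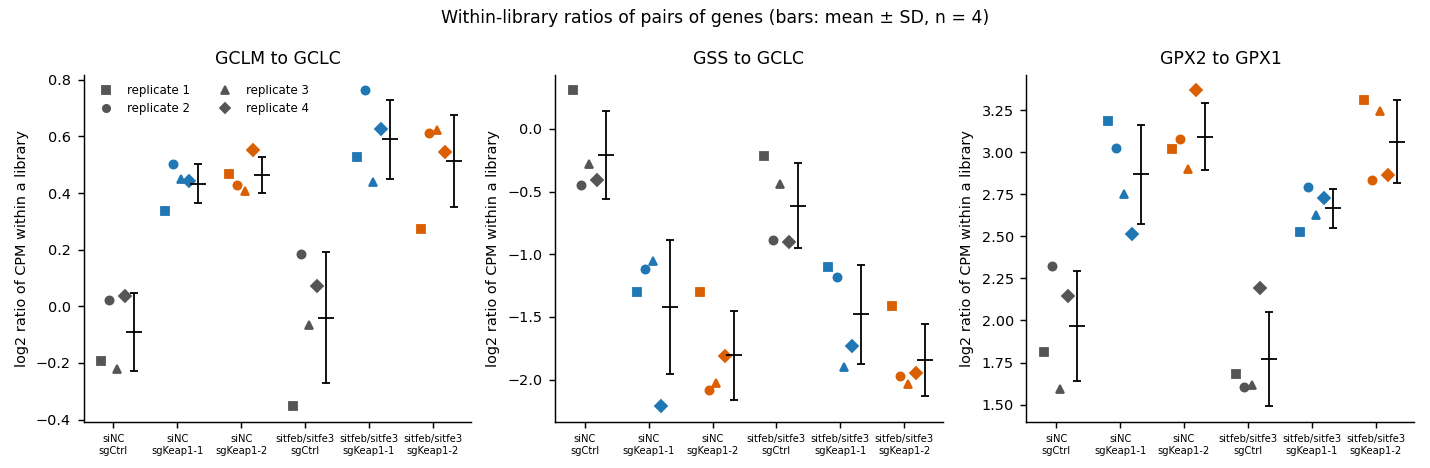
Log2 ratio of the CPM of 2 genes within each library, for GCLM to GCLC, GSS to GCLC and GPX2 to GPX1. Points are libraries, coloured by guide as in the plot of levels, and bars are the mean ± SD (n = 4). The ratio of GCLM to GCLC averages -0.09 and -0.04 in the sgCtrl groups and 0.43 to 0.59 with the Keap1 guides.

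GSR encodes glutathione reductase, the NADPH-dependent enzyme that returns glutathione disulfide to glutathione (chr8:30535583-30585363, minus strand, GRCh37). In sgCtrl it measured 224, 207, 194 and 194 CPM under siNC. With sgKeap1-1 the values were 289, 479.9, 454 and 486 CPM, and with sgKeap1-2 they were 534, 527, 526 and 512 CPM. Replicate 1 with sgKeap1-1 was far below its group and still above every sgCtrl library. Under sitfeb/sitfe3 GSR measured 230.3, 206, 213 and 214 CPM with sgCtrl. It measured 425, 429, 448 and 427 CPM with sgKeap1-1, and 379.6, 439, 473 and 497 CPM with sgKeap1-2, with no overlap. GSR rose 2.05-fold with sgKeap1-1 (log2 1.03 ± 0.12 SE, adjusted p = 1.06e-06) and 2.57-fold with sgKeap1-2 (1.36 ± 0.12, adjusted p = 4.76e-09) under siNC. Without siNC; sgKeap1-1 replicate 1 the first of these was 1.21 on the log2 scale (adjusted p = 2.32e-10). Under sitfeb/sitfe3 the rise was 2.00-fold (1.00 ± 0.12, adjusted p = 1.66e-06) and 2.07-fold (1.05 ± 0.12, adjusted p = 3.38e-07).

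The 3 peroxidases of the list are selenoproteins that reduce peroxides with glutathione, and they did not move together. GPX2, best known from the epithelium of the gut and also made in the liver, lies at chr14:65405870-65409464 (minus strand, GRCh37). Under siNC it measured 209, 196, 165 and 192 CPM with sgCtrl. With sgKeap1-1 it measured 588, 392, 379 and 346 CPM, and with sgKeap1-2 it measured 456, 418, 423 and 439 CPM. Here sgKeap1-1 replicate 1 was the highest library, in contrast to GSR, where it was the lowest of its group. Under sitfeb/sitfe3 GPX2 measured 202, 138, 142 and 220.0 CPM with sgCtrl. The values were 360.2, 342, 374 and 386 CPM with sgKeap1-1, and 498, 413, 426 and 488 CPM with sgKeap1-2. No group with a Keap1 guide overlapped sgCtrl. The rise was 2.19-fold with sgKeap1-1 (log2 1.13 ± 0.14 SE, adjusted p = 3.27e-06) and 2.28-fold with sgKeap1-2 (1.19 ± 0.14, adjusted p = 8.76e-07) under siNC. Under sitfeb/sitfe3 it was 2.13-fold (1.09 ± 0.14, adjusted p = 6.96e-06) and 2.64-fold (1.40 ± 0.14, adjusted p = 5.21e-08).

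GPX1, the peroxidase of the cytosol and mitochondria found in nearly every cell (chr3:49394607-49396038, minus strand, GRCh37), ran from 38.9 to 66.5 CPM over the 24 libraries. Its groups overlapped in all 4 comparisons, and its log2 fold changes were 0.24, 0.07, 0.19 and 0.12, with adjusted p from 0.367 to 0.839. GPX4, which reduces lipid hydroperoxides in membranes (chr19:1103981-1106790, plus strand, GRCh37), ran from 135 to 221 CPM. Under siNC its mean was 199.5 ± 12.4 CPM (SD, n = 4) with sgCtrl, 206 ± 11.5 with sgKeap1-1 and 192 ± 22.7 with sgKeap1-2. The corresponding log2 fold changes of 0.05 (95% interval -0.17 to 0.27) and -0.06 (-0.27 to 0.16) did not pass. Under sitfeb/sitfe3 GPX4 stood at -0.12 with sgKeap1-1 (adjusted p = 0.551) and at -0.24 with sgKeap1-2 (-0.46 to -0.02, adjusted p = 0.113). Within replicate numbers it was lower in 4 of 4 in both of these comparisons. With sgKeap1-2 these differences ran from -0.58, at number 1, to -0.07. Without sitfeb/sitfe3; sgKeap1-2 replicate 3 the value with sgKeap1-2 passed (-0.33, adjusted p = 0.0443). Over all its alternatives it ran from -0.33 to -0.14, with adjusted p from 0.0443 to 0.362.

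GGT1 encodes a gamma-glutamyltransferase of the cell surface, which opens the breakdown of extracellular glutathione (chr22:24990778-25024972, plus strand, GRCh37). Its counts were identical in all 24 libraries to those of GGT2P and LOC102724197, so the 3 genes cannot be told apart. The combined value rested on 32 to 86 reads per library and ran from 8.80 to 22.9 CPM. With sgKeap1-2 under siNC all 4 libraries, at 16.4, 17.2, 19.4 and 15.2 CPM, lay above the sgCtrl values of 11.7, 14.7, 9.47 and 12.5 CPM. This difference, 0.50 on the log2 scale (95% interval -0.02 to 1.01), did not pass (adjusted p = 0.211). The other 3 comparisons gave 0.06, -0.25 and -0.10 with overlapping groups, and at this depth the intervals reached from -0.75 to 0.61.

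**Figure D4:**
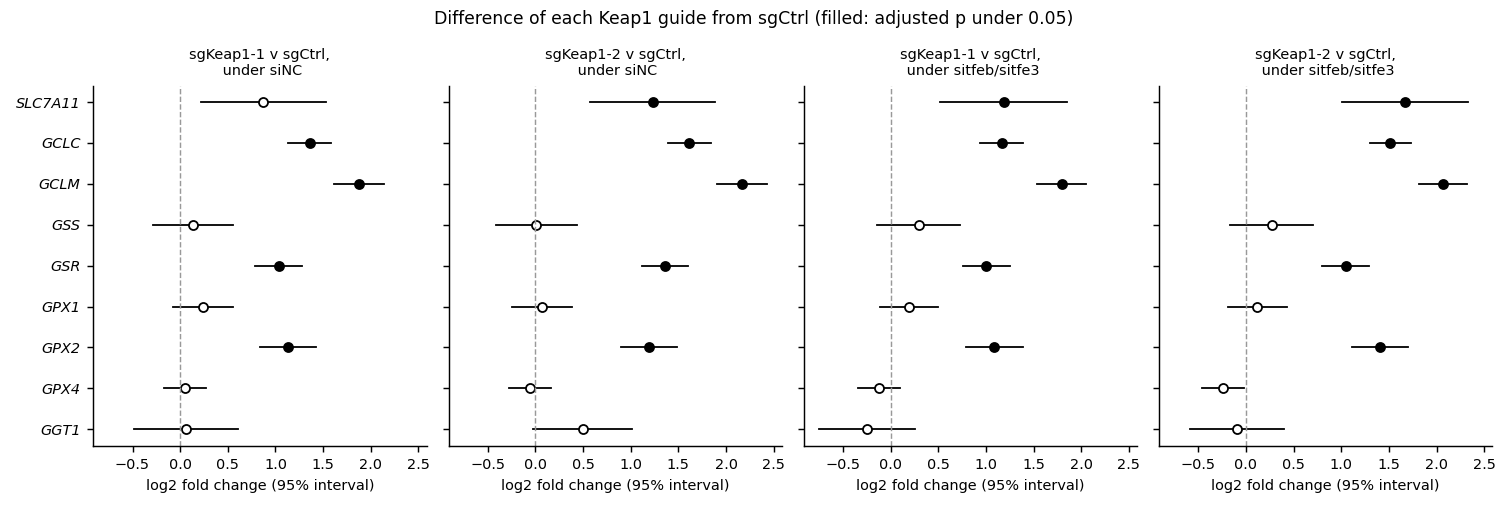
Log2 fold change of each gene with its 95% interval, for each Keap1 guide against sgCtrl under each siRNA, from limma-voom. Filled points passed an adjusted p of 0.05. GCLM is highest in all 4 panels, at 1.79 to 2.17, the interval of SLC7A11 is the widest of those that passed, and GSS, GPX1, GPX4 and GGT1 have open points throughout.

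The guides were compared directly, sgKeap1-2 against sgKeap1-1 averaged over both siRNAs. By limma-voom 0 of 9 members passed, beside 0.117% of all genes. In the fit without the replicate block, an unadjusted p under 0.05 was found for 3 of 9 (GCLC, GCLM and GSR), beside 951 of all 11152 genes. The quasi-likelihood test of edgeR also called 0, and DESeq2 called 1, GCLC. GCLC was higher with sgKeap1-2 by 0.31 on the log2 scale (95% interval 0.16 to 0.45, adjusted p = 0.114), GCLM by 0.28 (0.12 to 0.45, adjusted p = 0.241) and GSR by 0.19 (0.02 to 0.36, adjusted p = 0.526). Without siNC; sgKeap1-1 replicate 1, the library far below its group for GSR, the GSR value was 0.10 (adjusted p = 0.723). Without siNC; sgKeap1-1 replicate 4 that of GCLC passed (0.34, adjusted p = 0.0417). The other 6 members lay between -0.12 and 0.42. DESeq2 gave 0.30 for GCLC (adjusted p = 0.0185), and over all alternatives the adjusted p for GCLC ran from 0.0185 to 0.331.

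Knockdown of TFEB and TFE3 was read against siNC within each guide, to ask whether these factors move the members with and without KEAP1 guides. By limma-voom 0 of 9 members passed in sgCtrl, beside 0.0179% of all genes called in either direction, 0 of 9 in sgKeap1-1, beside 0.0897%, and 0 of 9 in sgKeap1-2, beside 0.359%. In this fit, without the replicate block, no member reached an unadjusted p of 0.05 in any of the 3. Of all 11152 genes, 516, 901 and 1169 did, in that order. The edgeR and DESeq2 tests called 0 members each. Few genes of any kind passed, so the shares of members and of all genes are alike. GCLC stood at 0.12 in sgCtrl (95% interval -0.11 to 0.36), -0.07 in sgKeap1-1 (-0.28 to 0.14) and 0.02 in sgKeap1-2 (-0.18 to 0.23). GCLM stood at 0.17 (-0.11 to 0.45), 0.09 (-0.15 to 0.32) and 0.08 (-0.16 to 0.31). For GSR in sgKeap1-2 the knockdown libraries all lay below the siNC libraries, at 379.6 to 497 against 512 to 534 CPM. Its difference was -0.24 (-0.48 to 0.00, adjusted p = 0.482). In all other pairs of member and guide the knockdown and siNC libraries overlapped, and the share of all genes that do not overlap was not counted. SLC7A11 had the widest intervals, with -0.35 in sgCtrl (-1.04 to 0.33), -0.04 in sgKeap1-1 (-0.68 to 0.60) and 0.08 in sgKeap1-2 (-0.54 to 0.71). The value in sgCtrl was -0.69 without siNC; sgCtrl replicate 1 (adjusted p = 0.9). With the replicate number as a block the 3 values were -0.36 ± 0.15 (SE), -0.05 ± 0.14 and 0.09 ± 0.14, on a smaller spread, and none passed (adjusted p = 0.806, 0.942 and 0.846). The intervals of GCLC and GCLM thus lay within -0.28 to 0.45, while for SLC7A11 larger changes in either direction were not detectable at the spread of the fit without the block.

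**Figure D5:**
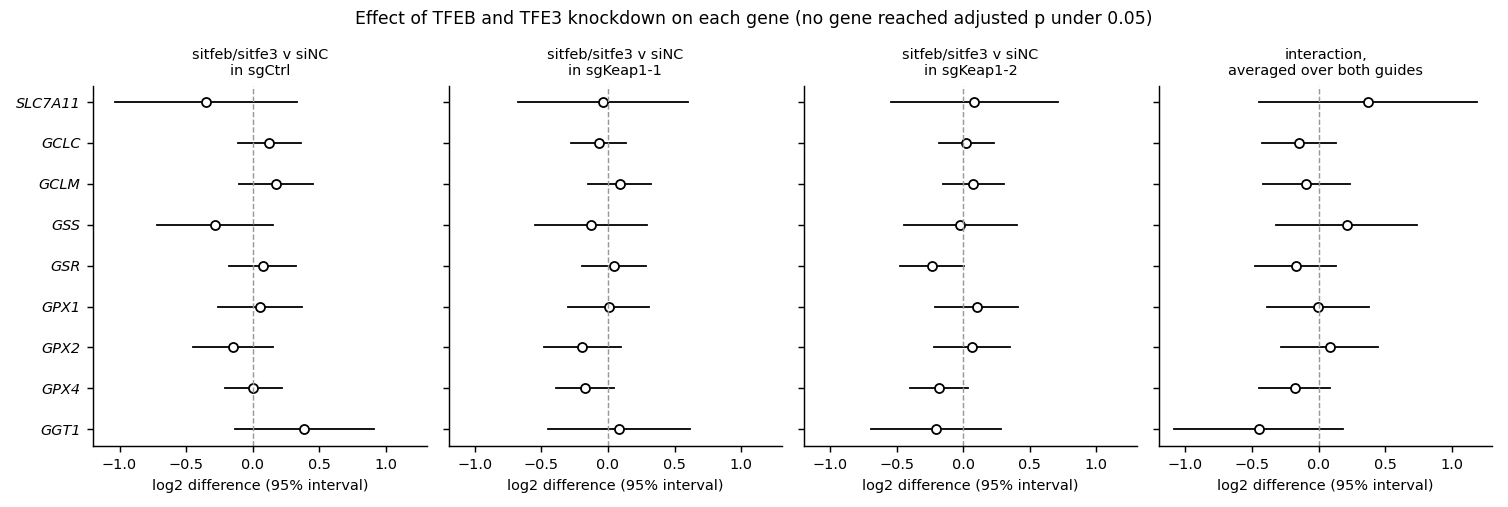
Log2 difference of each gene with its 95% interval for sitfeb/sitfe3 against siNC in each guide, and for the interaction averaged over both Keap1 guides. Open points did not pass an adjusted p of 0.05, as is the case for every value shown. The intervals of GCLC and GCLM for knockdown lie within -0.28 to 0.45 and those of SLC7A11 reach from -1.04 to 0.71.

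The interaction asked whether the difference made by the Keap1 guides was itself changed by the knockdown, as the guide effect under sitfeb/sitfe3 minus that under siNC, averaged over both guides. Of the 9 members 0 passed by limma-voom, and in the fit without the replicate block none had an unadjusted p under 0.05. Over all 11152 genes the share called was 0%, with 349 genes at an unadjusted p under 0.05 and 0 genes called by edgeR or by DESeq2. GCLC gave -0.15 (95% interval -0.43 to 0.13), GCLM -0.09 (-0.42 to 0.23), GSR -0.17 (-0.48 to 0.13), GPX2 0.08 (-0.28 to 0.45) and SLC7A11 0.37 (-0.45 to 1.19). The guide effects of GCLM, at 1.79 to 2.17, lay outside the interval of its interaction. For SLC7A11 the upper bound of the interaction was close to the size of the guide effects themselves. With the replicate number as a block its interaction was 0.37 ± 0.18 (SE) and did not pass (adjusted p = 0.998).

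The other genes of the pathway were read from lists named by role. Of 16 genes of cysteine supply and the gamma-glutamyl cycle, 13 were tested, with 0 higher and 1 lower with sgKeap1-1 under siNC, and 2 higher and 1 lower with sgKeap1-2. The shares of all genes were 6.01% higher and 4.91% lower with sgKeap1-1 and 7.58% and 7.14% with sgKeap1-2, and counts this small, here and in the lists below, do not set a list apart from them. Their median log2 fold changes were -0.15 and -0.16. ANPEP, an aminopeptidase that cleaves the dipeptide left by GGT1, fell with both guides, by 0.53 and 0.60. SLC3A2, the heavy chain that carries SLC7A11 to the membrane, rose with sgKeap1-2 by 0.61 ± 0.13 (SE, adjusted p = 0.00174) and stood at 0.34 with sgKeap1-1 (adjusted p = 0.103). GGT5, a relative of GGT1, was the other gene higher with sgKeap1-2, at 1.19 (adjusted p = 0.0308) from a mean of 2.19 CPM in sgCtrl, and like SLC3A2 it was named here after its values were seen. Under sitfeb/sitfe3 this list held 1 higher (GGT5) and 1 lower (ANPEP) with sgKeap1-1, and 2 higher (SLC3A2 and GGT5) and 3 lower (ANPEP, GGCT and DPEP1) with sgKeap1-2.

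Among 5 other glutathione peroxidases, 2 were tested, GPX3 and GPX7, and 1 was higher in each of the 4 comparisons. This was GPX3, the peroxidase secreted to plasma, which rose from 42.8 ± 9.42 CPM (SD, n = 4) in sgCtrl under siNC to 83.6 ± 18.2 with sgKeap1-1 and 76.8 ± 9.71 with sgKeap1-2. Its log2 fold changes under siNC were 0.98 (adjusted p = 3.09e-04) and 0.88 (adjusted p = 8.15e-04). GPX7 stood at -0.44 and -0.36 and did not pass. Among 9 enzymes that use glutathione outside the peroxidase and transferase families, 0 were higher and 1 lower with sgKeap1-1, and 1 was higher and 2 lower with sgKeap1-2, under siNC. GLRX5, a mitochondrial glutaredoxin of iron-sulfur cluster assembly, fell with both guides, by 0.44 and 0.57. The others past the threshold with sgKeap1-2 were GLRX, higher at 1.06, and TXNDC12, lower at -0.26. Under sitfeb/sitfe3, 0 were higher and 2 lower with each guide, GLRX5 with both, HAGH with sgKeap1-1 and GLO1 with sgKeap1-2.

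GPX1, GPX2 and GPX4 depend on selenium, so genes of selenoprotein synthesis and selenium uptake and the other selenoproteins were read beside them. Of 9 genes listed for selenoprotein synthesis and selenium uptake, 1 was higher in each of the 4 comparisons. Another, SEPHS2, was lower with sgKeap1-1 under siNC, at -0.40. The gene that rose was LRP8, a receptor that takes up selenoprotein P, at 0.82 and 0.78 under siNC (adjusted p = 1.16e-05 and 1.66e-05) and at 0.98 and 1.18 under sitfeb/sitfe3. Of 15 other selenoproteins, 1 was higher and 1 lower in each comparison. TXNRD1, the cytosolic thioredoxin reductase and a known NRF2 target, rose by 2.04 and 2.43 under siNC, from 87.1 ± 8.25 CPM (SD, n = 4) to 374 ± 128 and 471 ± 29.8 CPM. SELENOP, the selenium carrier that the liver secretes, fell by 1.00 and 1.02, from 1190.1 ± 205 to 614 ± 187 and 582 ± 57.8 CPM. The medians of these lists lay between -0.02 and 0.07 under siNC, near the median of all genes.

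For the 4 members that passed with both guides under siNC, the genes most like them over the 24 libraries were found by the root mean square difference of log2 CPM after each gene was centred on its own mean. The closest to GCLC were AKR1C3, an aldo-keto reductase, at 0.137, and NQO1, a quinone reductase, at 0.141, where GCLC itself varied by 0.686. GCLM was closest to ASPH, an aspartyl hydroxylase, at 0.214 and to SPOCK2, a matrix proteoglycan, at 0.222, with a variation of 0.951 of its own. The nearest to GSR were SULT1A1, a sulfotransferase, at 0.150 and MGST1, a membrane-bound glutathione transferase, at 0.171, beside 0.553 for GSR. GPX2 lay nearest to TALDO1, an enzyme of the pentose phosphate pathway, at 0.180 and again to NQO1 at 0.200, beside 0.606. These distances are a description over 24 libraries that share groups and numbers.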

How the data were processed

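Per the labels and the study's methods, RNA of HepG2 cells was made into QuantSeq 3′ libraries, 24 in all, and the authors trimmed reads with Cutadapt, aligned them with RNA STAR and counted them with featureCounts on Galaxy. The submitters' processing notes name FastQC 0.72, cutadapt 1.16, STAR 2.7.5b, featureCounts 1.6.3 and limma 3.40.6. The methods name build hg19 (GRCh37) and the notes hg38. The annotation, the strand setting and the rule by which low genes were removed are not given in the sources used here. The values the authors deposited are raw read counts, 1 column per library, with 0 columns left unmatched to a sample.

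Rows without a gene ID (1414 of 13446, 1.35% to 2.57% of a library's reads) were left out, rows sharing an ID were summed, and IDs with identical counts were kept as 1 feature. Symbols came from NCBI's gene table, gene positions from the GENCODE annotation of GRCh37 and promoters from RefSeq (GRCh38.p14). The test was limma-voom, as in the study, run in R 4.3.3 with limma 3.58.1 and edgeR 4.0.16, in 1 fit of 6 group means with filterByExpr and TMM scaling, two-sided, adjusted by Benjamini-Hochberg over 11152 genes at a threshold of 0.05. Log2 CPM used a prior count of 2. The pipeline was tested on simulated data. With 3527000 to 4600951 reads per library and no molecular identifiers, counting error is wide for low genes such as GGT1, at 32 to 86 reads. Alternatives were RLE scaling, no filter, edgeR, DESeq2 1.42.0, the replicate number as a block, the compared groups alone, and leaving out each library or all libraries numbered 1. For ratios a prior count of 0.5 was tried. Named genes were the 9 members, KEAP1, NFE2L2, TFEB and TFE3, up to 4 genes of each further list past the threshold with both guides under siNC, and the 2 genes nearest in pattern to each such member. Other list genes past the threshold in a single comparison or more, and GPX7, were named after their values were seen. Members, lists and tests were chosen with earlier results of these data known.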

Additional observations from a re-analysis of the deposited data

Results flagged for a closer look

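In groups of 4 libraries, a library was singled out where its gap to the nearest other library was larger than Dixon's 95% critical value allows for the range of the group. Of 54 combinations of member and group tested, 2 met this, and chance gives about 1 in 20, or 2.7 of 54. Both were GSR with sgKeap1-1. Under siNC, replicate 1 was the lowest of its group, at 8.18 on the log2 CPM scale (289 CPM, against 454 to 486 CPM in the other libraries). Under sitfeb/sitfe3, replicate 3 was the highest, at 8.81 on the log2 CPM scale (448 CPM, against 425 to 429 CPM). With replicate 1 left out the rise of GSR with sgKeap1-1 under siNC was 1.21 in place of 1.03 on the log2 scale.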

How the results depend on the processing

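The 19 pairs of member and comparison that passed the threshold were recomputed under 285 alternatives, of which 281 passed in the same direction, 4 did not pass and 0 reversed. The 4 were all SLC7A11 with 1 library left out, as given with its values. Of 1137 alternatives for the 62 pairs that had not passed, 7 passed. These were SLC7A11 with sgKeap1-1 under siNC, with the replicate block (0.86, adjusted p = 1.73e-04), without the libraries numbered 1 (0.78, adjusted p = 6.22e-04) and in 2 fits that left out 1 library, GPX4 with sgKeap1-2 under sitfeb/sitfe3 without sitfeb/sitfe3; sgKeap1-2 replicate 3 (-0.33, adjusted p = 0.0443, range over its alternatives 0.0443 to 0.362), and GCLC between the guides by DESeq2 and without siNC; sgKeap1-1 replicate 4 (0.34, adjusted p = 0.0417). The number of members called between the guides was thus 1 by DESeq2 in place of 0, and 0 to 1 with each library left out in turn. With each library left out, the members called higher numbered 4 to 5 with sgKeap1-1 under either siRNA and with sgKeap1-2 under siNC. Among the values that did not pass, 59 alternatives changed sign without passing. The cause was not tested. Same-numbered libraries correlated by -0.16 to 0.43 in their deviations from the group means, with 20 of 60 pairs over 0.1 and a median of 0.05, against 17 of 180 pairs over 0.1 and a median of -0.02 for libraries of different number. The median was 0.12 among libraries numbered 1 and 0.03 to 0.04 among the others. Same-numbered libraries thus deviated together in part, most for number 1, but not in every pair. The study states no covariate and the labels do not say what a number marks, so the block was kept as an alternative. Without it the spread is wider for SLC7A11, with an SE of 0.32 against 0.15 for sgKeap1-1 under siNC. With the replicate block, the members called with sgKeap1-1 under siNC numbered 5 in place of 4, and 1454 genes in place of 1218 passed. The block moved 2, 10 and 13 genes to 4, 30 and 48 for knockdown in sgCtrl, knockdown in sgKeap1-1 and the comparison of the guides, where DESeq2 gave 8, 48 and 46. Knockdown in sgKeap1-2 gave 40 genes by limma, 33 by edgeR and 96 by DESeq2. The block changed no other member's call. No ratio changed direction under another prior count, RLE scaling or with 1 library left out. RLE in place of TMM scaling left the median of all genes within -0.02 to 0.01. Depth limits GGT1 most, at 32 reads in its lowest library.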
